A study of Mus with 12 samples.

Results

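Red cells leave the bone marrow as reticulocytes and finish maturing in blood, where they remove their mitochondria, ribosomes and remaining organelles. The 8 genes described here belong to terminal red cell maturation: Bnip3l, Ulk1, Map1lc3b and Gabarapl2 of the autophagy branch, and Fbxo7, Trim58, Ube2o and Xpo7 of the ubiquitin and nuclear branch. They were listed by gene name and are 8 of the 25247 genes in the blood table. All 8 passed the filter on low values, which asked for 1 FPKM or more in 3 or more of the 12 libraries and kept 5527 genes. FPKM is the fragment count divided by gene length and by the library total, so that levels of different genes can be set side by side.

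Blood RNA came from female BALB/c mice, 6 weeks old when obtained, in 4 groups of 3 libraries. Solvent mice received only the acetone and olive oil vehicle. DNCB mice received dinitrochlorobenzene, a contact sensitiser that gives a chemically induced dermatitis with symptoms like those of atopic dermatitis, at 1% for sensitisation and 0.5% for the repeated challenge. The scMSC and scivMSC mice received DNCB as well, together with human umbilical cord mesenchymal stem cells (MSC) given under the skin (scMSC), or under the skin and into a vein (scivMSC). Each dose was 2000000 cells, injected as 100 µL under the skin in scMSC and as 50 µL under the skin with 50 µL into the vein in scivMSC, so the venous route cannot be told apart from the smaller volume under the skin. Thus 3 of the 4 groups share DNCB, and both MSC groups received human cells in a mouse host. Blood was taken on day 30. Nothing in the labels ties the libraries to single animals, so p-values measure the spread between these libraries only.

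In a reticulocyte, BNIP3L (also called NIX) sits on the mitochondrial surface and recruits the ATG8 proteins, the LC3 and GABARAP families, which draw a membrane around the organelle. The kinase ULK1 starts that membrane. Proteins that are not enclosed are marked with ubiquitin and degraded, and UBE2O is an enzyme that ubiquitinates ribosomal proteins and unpaired globin. TRIM58 is an erythroid ubiquitin ligase that acts on dynein, and FBXO7 is the substrate receptor of an SCF ubiquitin ligase. XPO7 is a nuclear export receptor abundant in late erythroblasts.

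Haemoglobin genes took 78.4 to 89.0% of the counts in the 12 libraries, whose totals were 52.2e6 to 65.1e6, and left 5.84e6 to 12.9e6 for all other genes. Their share differed over the 4 groups by an exact permutation test (one-sided, p = 0.0492 over 369600 splits), with group means of 81.2% in DNCB and 87.3% in scivMSC. By summed FPKM the same exact permutation test gave p = 0.0593. Leaving out any DNCB or scMSC library also brought its p over 0.05, so the difference is narrow. Erythroid markers, 11 of which were in the table and none at 0, summed to 4033 to 5098 FPKM across all libraries, so red cell transcripts were present in every library. Neutrophil markers (8 of 8, none at 0) summed to 214 to 438 FPKM in Solvent, 6468 to 10203 in DNCB, 527 to 676 in scMSC and 205 to 628 in scivMSC. Monocyte markers summed to 1.08 to 33.6 FPKM, T cell markers to 7.08 to 88.9, B cell markers to 3.02 to 121 and platelet markers to 367 to 892, with none at 0. In bulk blood, fewer cells of a type and less RNA per cell cannot be told apart.

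The 8 genes spanned mean levels from 1.61 FPKM for Trim58 to 257 FPKM for Bnip3l. By mean FPKM over the 12 libraries, among 25237 genes other than haemoglobin, Bnip3l ranked 36, Gabarapl2 69, Ube2o 98 and Map1lc3b 305. Fbxo7, Xpo7, Ulk1 and Trim58 followed at ranks 1720, 2375, 2393 and 2857. The highest library exceeded the lowest by 9.80-fold for Ulk1 and by 5.09-fold for Xpo7, and by 1.55-fold to 2.26-fold for the other 6 genes.

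**Figure D1:**
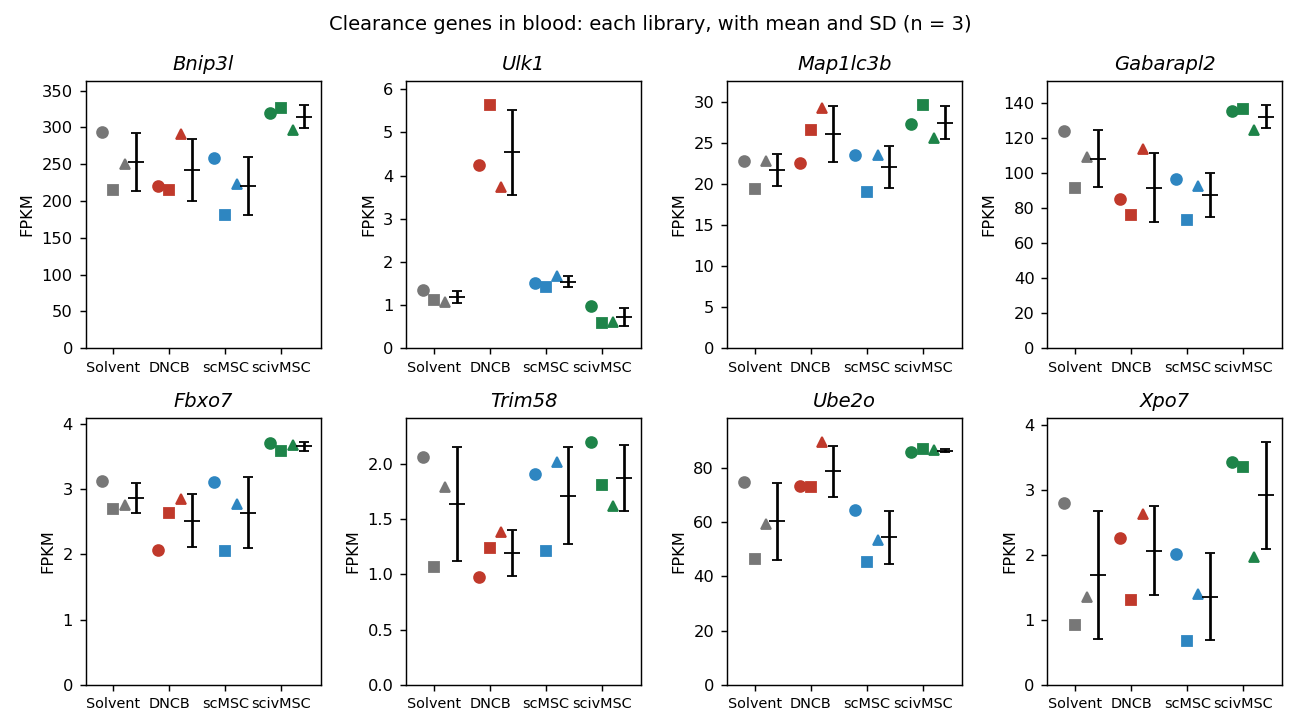
FPKM of each of the 8 genes in the 12 blood libraries, on axes that start at 0; circles, squares and triangles are replicates 1, 2 and 3, and the black mark is the group mean with its SD (n = 3). Ulk1 stands at 3.72 to 5.63 FPKM in DNCB and at most 1.67 elsewhere, while Bnip3l, Gabarapl2 and Fbxo7 are highest in scivMSC.

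Ulk1, the kinase that starts autophagosome formation, was the member with the widest range of FPKM over the libraries. Ulk1 (ENSMUSG00000029512, chromosome 5, 110784488 to 110810097, minus strand) stood at 1.34, 1.12 and 1.08 FPKM in the Solvent libraries and at 4.25, 5.63 and 3.72 in the DNCB libraries. It stood at 1.52, 1.42 and 1.67 FPKM in scMSC and at 0.966, 0.574 and 0.617 in scivMSC. No pair of groups overlapped (DNCB lay above Solvent without overlap in 25.0% of all tested genes), and the order of the levels was DNCB, scMSC, Solvent, scivMSC. For the other pairs the share of all genes without overlap is not given here. Genes called lower were 62.0% of all in scivMSC against DNCB, 59.2% against Solvent and 30.4% against scMSC. The means were 4.54 ± 0.982 FPKM in DNCB, 1.54 ± 0.128 in scMSC, 1.18 ± 0.141 in Solvent and 0.719 ± 0.215 in scivMSC (SD, n = 3 each). These levels rested on 210 to 2323 counts per library.

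Ulk1 rose in DNCB over Solvent by 1.93 on the log2 scale (SE 0.32, a 3.82-fold difference, edgeR quasi-likelihood adjusted p = 0.000392). It was 1 of the 8 genes called, with an adjusted p under 0.05 and a fold above 2, and the other 7 were not called. Of all 5527 genes tested, 15.6% were called higher and 4.87% lower in that comparison. Ulk1 was lower in scMSC than in DNCB by a log2 difference of -1.57 (SE 0.32, adjusted p = 0.00208), again the only member called, beside 24.9% of all genes called lower and 1.27% called higher. It was lower in scivMSC than in DNCB, at -2.65 (SE 0.33, adjusted p = 9.74e-06), beside 62.0% of all genes called lower and 1.43% called higher. These 3 comparisons share the DNCB libraries. The share of genes called lower in the scivMSC comparison sets a high background for the last value.

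Those differences are per total count, which haemoglobin dominates. Scaling by TMM, which sets the bulk of genes level, moved the median log2 difference of all tested genes from -1.53 to 0.04 in scivMSC against DNCB and from -0.63 to 0.06 in scMSC against DNCB. The TMM factors were 0.330 to 0.751 in the scivMSC libraries and 0.824 to 1.87 in all others. Measured against the median of all genes, Ulk1 was higher in DNCB than in Solvent by 1.88 per total count and by 1.84 under TMM. Its difference relative to that median was -0.93 and -0.92 in scMSC against DNCB, and -1.12 and -1.06 in scivMSC against DNCB. Taking off the median cancels most of the scaling, so the values under both scalings had to lie close. The DNCB difference of 1.75 under TMM was called, beside 16.1% of genes called higher. Under TMM the scMSC difference fell short of the 2-fold limit, at -0.86 with an edgeR adjusted p of 0.0025, and the scivMSC difference of -1.02 was called (adjusted p = 0.000334), beside 18.9% of genes called lower.

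Neither MSC group had a called Ulk1 difference from Solvent. The log2 difference was 0.37 in scMSC (95% interval -0.29 to 1.02, adjusted p = 0.404), a comparison in which 0.326% of all genes were called higher and 0.326% lower. It was -0.71 in scivMSC (interval -1.37 to -0.05, adjusted p = 0.0543), beside 59.2% called lower and 2.59% called higher. The sign of the latter turned under TMM, to 0.73 (edgeR adjusted p = 0.00416, under 2-fold), and Ulk1 was 0.76 above the median of all genes per total count. In scMSC against Solvent the TMM difference was 0.89 (edgeR adjusted p = 0.0065, under 2-fold). There Ulk1 was 0.95 above the median of all genes per total count.

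Ulk2, the close relative of Ulk1, was also called lower in scivMSC than in DNCB, while its difference between DNCB and Solvent did not pass the test. Its levels were 1.31, 0.554 and 0.974 FPKM in Solvent, 1.33, 1.68 and 1.19 in DNCB, 0.609, 0.402 and 0.738 in scMSC, and 0.415, 0.115 and 0.147 in scivMSC. The DNCB and Solvent libraries overlapped, with a log2 difference of 0.57 (SE 0.48, edgeR adjusted p = 0.444). The difference between scivMSC and DNCB was -2.63 (adjusted p = 0.00035; -1.15 under TMM, also called). Ulk1 made up 50.7, 67.0 and 52.6% of the summed Ulk1 and Ulk2 FPKM in Solvent, 75.8 to 77.1% in DNCB, 69.4 to 77.9% in scMSC and 70.0 to 83.3% in scivMSC. All 9 libraries of the DNCB-treated mice lay above the 3 Solvent libraries. The share differed over the 4 groups (exact permutation test, one-sided, p = 0.0108, adjusted 0.0145 over 4 shares), and a share within a library does not depend on how libraries are scaled.

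Neutrophil markers moved with the Ulk1 level between DNCB and the other groups. The 3 DNCB libraries, which held the highest Ulk1, also held the highest neutrophil marker sums, at least 6468 FPKM against at most 676 in any other library. All 8 neutrophil markers were called higher in DNCB than in Solvent, with a median log2 difference of 4.61, and all 8 were called lower in both MSC groups than in DNCB. No erythroid marker of the 9 tested was called in DNCB against Solvent, with a median of -0.08. Gata1, the erythroid transcription factor, was the 1 erythroid marker called in the MSC groups against DNCB, higher at 1.91 in scMSC and 2.13 in scivMSC (edgeR adjusted p = 0.000741 and 4.84e-05). Under TMM 2 of the 9 were called higher in scMSC and 9 of 9 in scivMSC. Between scivMSC and Solvent the neutrophil sums overlapped, whereas the Ulk1 levels did not. Monocyte marker sums were also highest in DNCB, at 18.28 to 33.6 FPKM against 6.18 to 18.27 in Solvent, 5.39 to 7.13 in scMSC and 1.08 to 3.20 in scivMSC. The part of neutrophil or monocyte RNA in the Ulk1 differences was not tested.

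**Figure D2:**
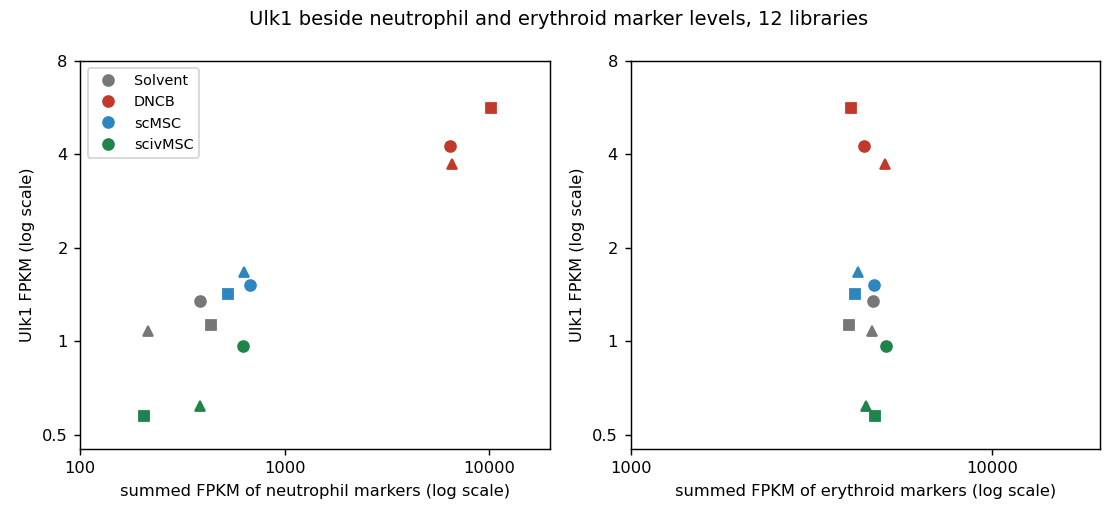
Ulk1 FPKM against the summed FPKM of 8 neutrophil markers (left) and 11 erythroid markers (right) in the 12 libraries, both axes on log scales; colours are the groups and circles, squares and triangles are replicates 1, 2 and 3. The 3 DNCB libraries stand apart on the neutrophil axis, at 6468 to 10203 FPKM, whereas erythroid sums lie between 4033 and 5098 FPKM in all 12.

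Bnip3l, the mitophagy receptor, was the most abundant of the 8 genes. Bnip3l (ENSMUSG00000022051, chromosome 14, 66985239 to 67008877, minus strand) stood at 294, 214 and 249.9 FPKM in Solvent and at 221, 215 and 290.3 in DNCB. It stood at 259, 180.4 and 223 FPKM in scMSC and at 320.1, 326 and 297 in scivMSC. All 3 scivMSC libraries lay above the 9 others, and the other 3 groups overlapped one another. The log2 difference between DNCB and Solvent was -0.06 (95% interval -0.45 to 0.33, edgeR adjusted p = 0.86). In scivMSC it was 0.37 against DNCB (interval -0.02 to 0.76, adjusted p = 0.082) and 0.52 against scMSC (SE 0.18, adjusted p = 0.0422, 1.43-fold), below the 2-fold limit. Against Solvent it was 0.31 in scivMSC (edgeR adjusted p = 0.144). The lowest scivMSC library, at 297 FPKM, stood just above the highest Solvent library, at 294.

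A processed copy of the gene, Bnip3l-ps (chromosome 12, 18216542 to 18217673), was listed at 59.8 to 107 FPKM. Its counts were 7.95 to 10.7% of those of Bnip3l in each library. Reads shared by such near-identical copies can be split between them by the counting, so the level of Bnip3l is uncertain by about that share.

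The paralogue Bnip3, an inducible mitophagy receptor, differed from Bnip3l in both level and pattern. Bnip3 stood at 0.705, 0.663 and 0.382 FPKM in Solvent, 2.07, 4.23 and 2.32 in DNCB, 0.406, 0.132 and 0.262 in scMSC, and 0.457, 0.0594 and 0.116 in scivMSC. It rose in DNCB over Solvent by 2.26 on the log2 scale (SE 0.64, edgeR adjusted p = 0.0175) and was lower than in DNCB at -3.41 in scMSC and -3.70 in scivMSC (adjusted p = 0.00187 and 0.00023). All 3 Bnip3 calls also held under TMM. Only its DNCB libraries reached 1 FPKM, so Bnip3 passed the filter through the group where it is high. The filter thus favours these calls, and the levels of Bnip3 in the other groups were all under 1 FPKM. Bnip3l made up 98.1 to 99.2% of the summed FPKM of the pair in DNCB and 99.7 to 100.0% elsewhere. That share differed over the groups (exact permutation test, one-sided, p = 0.000714, adjusted 0.00286).

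The ATG8 proteins tether the receptor-bound organelle to the growing membrane, and Gabarapl2 (also known as GATE-16) was their main transcript in blood. Gabarapl2 (ENSMUSG00000031950, chromosome 8, 111940703 to 111953612, plus strand) stood at 124, 91.7 and 109 FPKM in Solvent and at 85.4, 76.0 and 114 in DNCB. It stood at 96.9, 73.5 and 92.9 FPKM in scMSC and at 135, 137 and 125 in scivMSC. Again all scivMSC libraries exceeded the other 9, while the remaining groups overlapped. The log2 difference was 0.52 in scivMSC against DNCB (SE 0.21, edgeR adjusted p = 0.039, 1.44-fold) and 0.60 against scMSC (SE 0.21, adjusted p = 0.0422, 1.52-fold), neither past 2-fold. Against Solvent it was 0.28 in scivMSC (edgeR adjusted p = 0.246). The lowest scivMSC library, at 125 FPKM, stood just above the highest Solvent library, at 124.

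Map1lc3b, which encodes LC3B, had the smallest range over the 12 libraries. Map1lc3b (ENSMUSG00000031812, chromosome 8, 121590361 to 121598760, plus strand) stood at 22.8, 19.5 and 22.9 FPKM in Solvent, 22.5, 26.7 and 29.3 in DNCB, 23.6, 19.1 and 23.6 in scMSC, and 27.3, 29.6 and 25.6 in scivMSC. The scivMSC libraries lay above those of Solvent and scMSC and overlapped those of DNCB. Its difference between DNCB and Solvent was 0.27 on the log2 scale (95% interval -0.16 to 0.70, edgeR adjusted p = 0.379), and between scivMSC and DNCB 0.07 (interval -0.36 to 0.49, adjusted p = 0.783). Both intervals lie within a 2-fold change.

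Set against one another, the 5 ATG8 genes shifted in proportion. Gabarapl2 made up 66.7 ± 2.04% of the family's summed FPKM in Solvent, 51.7 ± 6.80% in DNCB, 56.1 ± 1.86% in scMSC and 63.8 ± 1.31% in scivMSC (SD, n = 3 each). The lowest Solvent library, at 64.4%, lay above every DNCB library, of which the highest was 57.8%. The share differed over the 4 groups (exact permutation test, one-sided, p = 0.00169, adjusted 0.00338), whereas that of Map1lc3b, 13.2 to 14.8% in the group means, did not pass (p = 0.209, or 0.0238 without Solvent replicate 1).

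The relatives that made up the rest differed between groups. Gabarap stood at 27.3, 18.8 and 16.1 FPKM in Solvent and at 38.1, 50.1 and 40.7 in DNCB, with no overlap, and its share of the family went from 12.7 ± 2.35% to 24.5 ± 4.41% (SD, n = 3). It rose with DNCB by 1.05 on the log2 scale (SE 0.27, edgeR adjusted p = 0.0105), and by 0.92 under TMM, short of 2-fold. Gabarapl1 took 6.56 ± 2.89% in Solvent, 7.96 ± 2.07% in DNCB, 15.0 ± 2.43% in scMSC and 11.6 ± 0.415% in scivMSC. The scMSC and scivMSC libraries of Gabarapl1, at 20.8 to 26.0 FPKM, lay above all DNCB and Solvent libraries, at 4.69 to 17.7. Gabarapl1 was called higher in scivMSC than in Solvent, at 1.10 (SE 0.37, adjusted p = 0.0152), and its difference between scMSC and Solvent was 1.03 (adjusted p = 0.112). Under TMM both were called, at 2.72 and 1.65. Map1lc3a stayed at 0.684 to 2.27 FPKM, with no call per total count.

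**Figure D3:**
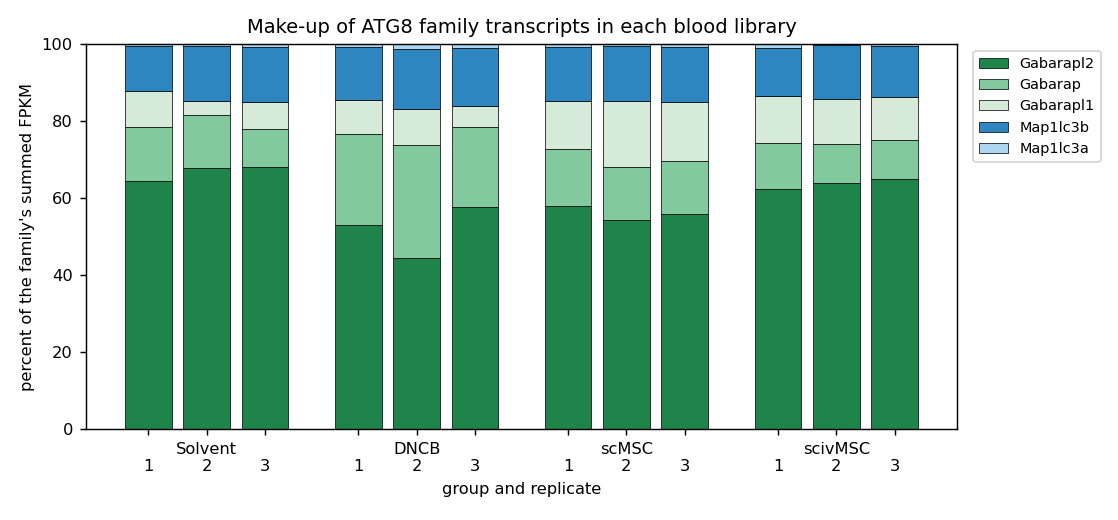
Percent of the summed FPKM of the 5 ATG8 family genes contributed by each gene, in each of the 12 libraries (bars, replicates 1 to 3 within a group). Gabarapl2 goes from a mean of 66.7% in Solvent to 51.7% in DNCB, where Gabarap reaches 24.5%, and Gabarapl1 is at its highest in scMSC, at 15.0%.

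Ube2o, the ubiquitin-conjugating enzyme that clears ribosomal proteins, was the second member to differ over the 4 groups. Ube2o (ENSMUSG00000020802, chromosome 11, 116537740 to 116581447, minus strand) stood at 75.0, 46.4 and 59.6 FPKM in Solvent and at 73.6, 73.2 and 89.7 in DNCB. It stood at 64.6, 45.2 and 53.4 FPKM in scMSC and at 85.8, 86.9 and 86.6 in scivMSC. The scivMSC libraries had a coefficient of variation of 0.652%. They lay above every Solvent and every scMSC library, which held for 6.10 and 3.82% of all genes. DNCB was above scMSC without overlap, a comparison in which 24.9% of all genes were called lower in scMSC. The F test over the 4 groups gave an edgeR adjusted p of 0.0242 for Ube2o and 1.87e-05 for Ulk1, and 0.0624 to 0.472 for the other 6. These 2 of 8 stand beside 72.3% of all tested genes. Under TMM all 8 passed, beside 70.0%.

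Ube2o was higher in scivMSC than in scMSC by 0.67 on the log2 scale (SE 0.21, edgeR adjusted p = 0.0265, 1.60-fold) and than in Solvent by 0.51 (SE 0.21, adjusted p = 0.04, 1.43-fold). Both were below 2-fold. The difference between scMSC and DNCB was -0.55 (SE 0.21, adjusted p = 0.0614), and the difference between DNCB and Solvent was 0.39 (SE 0.21, adjusted p = 0.213).

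Fbxo7, whose protein picks substrates for an SCF ligase, was low, at 2.05 to 3.71 FPKM over the libraries. Fbxo7 (ENSMUSG00000001786, chromosome 10, 86021972 to 86051873, plus strand) stood at 3.13, 2.70 and 2.76 FPKM in Solvent, 2.07, 2.64 and 2.85 in DNCB, 3.11, 2.05 and 2.77 in scMSC, and 3.71, 3.58 and 3.67 in scivMSC. All scivMSC libraries were above the 9 others. The log2 difference from DNCB was 0.53 (95% interval -0.06 to 1.12, edgeR adjusted p = 0.102), so the spread between libraries did not separate it from no difference. Against Solvent, Fbxo7 in scivMSC differed by 0.35 (edgeR adjusted p = 0.28). Of its 4 tested partners, Skp1a (Skp1) and the RING subunit Rbx1 were called lower in scivMSC than in Solvent per total count, at -1.22 and -1.05 (adjusted p = 0.00766 and 0.0332), beside 59.2% of all genes, and were at 0.23 and 0.43 under TMM. Cul1 and Psmf1, which encodes the FBXO7-binding proteasome regulator PI31, had no call per total count. The difference of Psmf1 between scivMSC and DNCB was 0.64 (adjusted p = 0.0614), and 2.25 under TMM, where it was called.

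Trim58, the erythroid ligase, was the least abundant member. Trim58 (ENSMUSG00000037124, chromosome 11, 58640465 to 58652404, plus strand) stood at 2.06, 1.06 and 1.79 FPKM in Solvent, 0.973, 1.24 and 1.38 in DNCB, 1.91, 1.21 and 2.02 in scMSC, and 2.20, 1.81 and 1.62 in scivMSC. It rested on only 132 to 303 counts per library. The scivMSC libraries lay above those of DNCB, and all other pairs of groups overlapped. The log2 difference was -0.45 in DNCB against Solvent (95% interval -1.29 to 0.38) and 0.64 in scivMSC against DNCB (interval -0.19 to 1.48), with edgeR adjusted p = 0.462 and 0.157. Under TMM it was called higher in scMSC than in DNCB, at 1.15 (adjusted p = 0.0111), where 8.74% of genes were called higher, against 0.51 per total count. The intervals of both extend past a 2-fold change.

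Xpo7, the nuclear export receptor, was the member that varied most between libraries of a group in Solvent, DNCB and scMSC. Xpo7 (ENSMUSG00000022100, chromosome 14, 70654246 to 70766628, minus strand) stood at 2.81, 0.925 and 1.36 FPKM in Solvent, 2.27, 1.31 and 2.63 in DNCB, 2.02, 0.675 and 1.40 in scMSC, and 3.43, 3.36 and 1.97 in scivMSC. Its coefficient of variation was 58.1% in Solvent, 33.0% in DNCB, 49.3% in scMSC and 28.1% in scivMSC, and all groups overlapped. Xpo7 had the largest log2 difference of the members between scivMSC and scMSC, at 1.11 (SE 0.44, 2.15-fold), which missed the threshold with an edgeR adjusted p of 0.0625. It overlaps Dok2 on the opposite strand, which has up to 1323 counts, and the sources used here do not state strand, so reads of the pair could be mixed.

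Between the MSC groups, scivMSC against scMSC, Ulk1 was lower and the other 7 members had differences above 0. The 7 log2 differences ran from 0.14 for Trim58 to 1.11 for Xpo7, beside a median of -0.87 over all tested genes. Only Ulk1 was called, at -1.08 (SE 0.31, adjusted p = 0.0216), where 30.4% of all genes were called lower and 0.344% higher. In 5 members, Bnip3l, Map1lc3b, Gabarapl2, Fbxo7 and Ube2o, every scivMSC library lay above every scMSC library, which held for 3.82% of all genes. Bnip3l, Gabarapl2 and Ube2o passed the adjusted p without the fold limit as higher, beside 0.615% of all genes, and Ulk1 passed it as lower, beside 31.6%. The Ulk1 call was lost under TMM, where its difference was -0.16 (edgeR adjusted p = 0.509).

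The same 7 members had log2 differences of 0.07 to 0.64 in scivMSC against DNCB and 0.19 to 0.78 in scivMSC against Solvent, where the medians of all genes were -1.53 and -1.47. In 4 of them, Bnip3l, Gabarapl2, Fbxo7 and Trim58, every scivMSC library lay above every DNCB library, beside 5.41% of all genes. In 5, Bnip3l, Map1lc3b, Gabarapl2, Fbxo7 and Ube2o, every scivMSC library lay above every Solvent library, beside 6.10%. The comparisons share the scivMSC libraries. In DNCB against Solvent the 7 ran from -0.45 to 0.39, and in scMSC against Solvent from -0.33 to 0.05, with no call in either.

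With TMM scaling the picture of the 7 changed from no call to 7 calls. Under TMM they were called higher in scivMSC than in DNCB, with log2 differences of 1.78 for Map1lc3b to 2.30 for Trim58, beside 20.6% of all genes called higher. They were also called higher than scMSC (1.14 to 2.19, beside 13.1%) and than Solvent (1.71 to 2.43, beside 22.4%). Relative to the median of all genes the 7 stood 1.59 to 2.17 higher in scivMSC than in DNCB per total count, and 1.74 to 2.26 under TMM. Taking off the median cancels most of the scaling, so both ranges had to lie close and do not check one another. With libraries scaled by haemoglobin counts no member other than Ulk1 was called in any of the 6 comparisons. The 9 tested erythroid markers moved alongside, with a median of 0.60 per total count and 2.24 under TMM in scivMSC against DNCB, where 1 (Gata1) and 9 of them were called higher. The 6 platelet markers had medians of 0.25 and 1.98 there, with 0 called per total count and 6 under TMM. In scivMSC against Solvent the platelet medians were 1.31 and 2.88, with 4 and 6 called higher. The part of erythroid or platelet RNA in these differences was not tested.

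**Figure D4:**
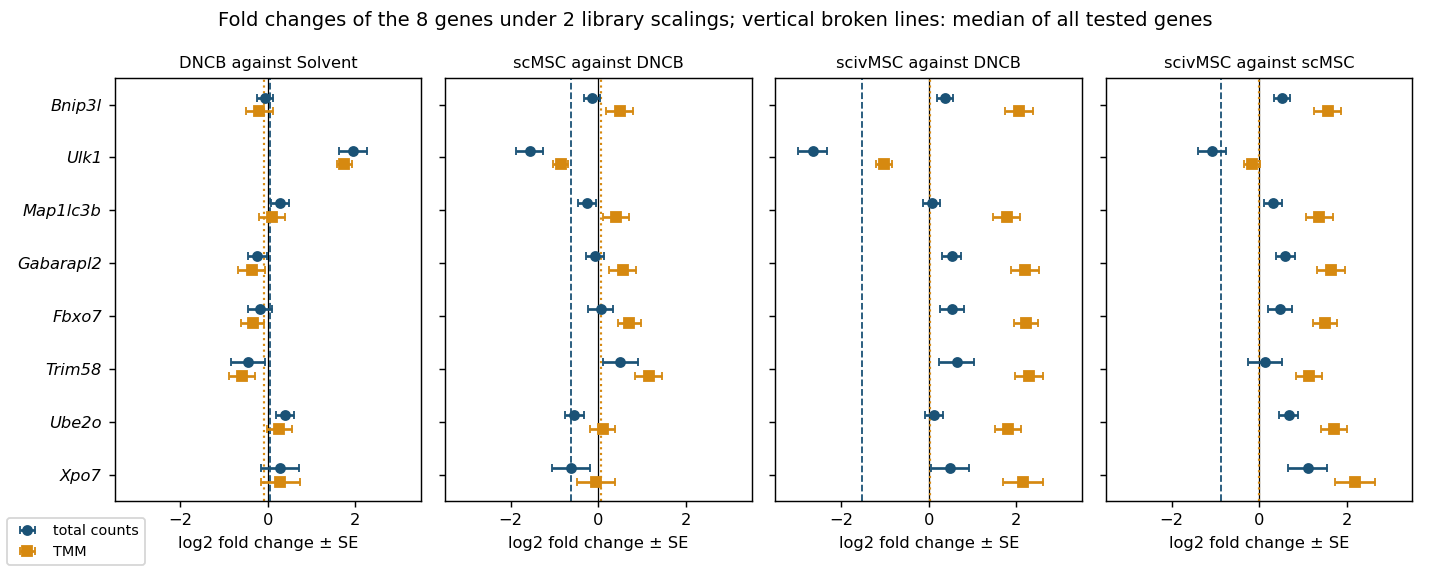
Log2 fold change with its SE for the 8 genes in 4 comparisons, with libraries scaled by total counts (blue circles) or TMM (orange squares); the broken vertical lines are the medians of all 5527 tested genes under each scaling. In scivMSC against DNCB the 7 genes other than Ulk1 lie at 0.07 to 0.64 per total count and at 1.78 to 2.30 under TMM, and the median of all genes moves from -1.53 to 0.04.

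The other genes of these pathways were taken as lists, whose counts stand beside 15.6% of all genes called higher in DNCB than in Solvent and 62.0% called lower in scivMSC than in DNCB. Of 11 tested mitophagy receptors and adaptors, 1 (Bnip3, which passed the filter only through DNCB) was called higher in DNCB than in Solvent. In scivMSC against DNCB 6 were called lower, with a median of -1.11 per total count and 0.59 under TMM. Of 8 tested genes of autophagy initiation and membrane supply, Atg101 and Atg9a were called higher in DNCB, and 5 were called lower in scivMSC than in DNCB, with a median of -1.39 per total count and 0.16 under TMM. Among 9 tested ATG8 relatives and conjugation genes, Gabarap, Atg3 and Atg7 were called higher in DNCB. In that list Atg3, Atg4d, Atg5 and Atg7 were called lower in scivMSC than in DNCB, with a median of -0.95 per total count and 0.73 under TMM.

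On the ubiquitin side, Ube2h, an erythroid ubiquitin-conjugating enzyme, stood at 5.22 to 9.95 FPKM in Solvent and 14.0 to 20.1 in DNCB, a log2 difference of 1.22 (SE 0.29, edgeR adjusted p = 0.00604). It was lower than in DNCB at -1.37 in scMSC and -1.28 in scivMSC, but -0.69 and 0.46 under TMM, without a call. Of the 9 tested genes of Ube2h and its CTLH ligase, 5 were called lower in scivMSC than in DNCB, beside 62.0% of all genes, with a median of -1.28 per total count and 0.46 under TMM. Of 4 tested SCF partners none was called there (median -0.71, and 0.90 under TMM). In the same comparison 3 of 5 ubiquitin genes and activating enzymes were called lower (median -1.51, and 0.12 under TMM).

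Nuclear transport genes other than Xpo7 were called lower in scivMSC than in DNCB in 5 of 6, beside 62.0% of all genes (median -1.91, and -0.26 under TMM). Dynein subunits, the complex TRIM58 acts on, were called lower in 4 of 5 (median -1.25, and 0.33 under TMM). The median of all tested genes was -1.53, and 0.04 under TMM, and that of the 8 members was 0.43, and 2.10 under TMM.

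Across the 12 libraries, the 7 members other than Ulk1 were positively correlated in every pair, some only weakly. Pearson correlations of log2(FPKM + 1) in their 21 pairs ran from 0.293 (Trim58 with Ube2o) to 0.960 (Bnip3l with Gabarapl2), whereas those of Ulk1 with the 7 ran from -0.591 to 0.102. These are descriptions over 12 libraries that share a scale set by haemoglobin, with no range of other gene pairs beside them. Of 4985 genes compared, the most similar to Bnip3l were Ranbp10 (0.983), Tent5c and Gabarapl2, and to Gabarapl2 they were Bnip3l, Snx15 and Ghitm. Ube2o was most similar to Yipf4 (0.957), Slc25a37, the mitochondrial iron importer, and Bcl2l1. Xpo7 was most similar to Car2 (0.971), Slc4a1 and Mpp1, which encode a carbonic anhydrase and red cell membrane proteins. Fbxo7 was most similar to Fam117a (0.928), Bnip3l-ps and Spire1, and Trim58 to Dnajb2 (0.893), Usp15 and Cdc25b. Ulk1 was most similar to Ndst1 (0.998), Antxr2 and the interferon-induced Oas2 (both 0.994).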

How the data were processed

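The authors deposited 1 blood table of 25247 genes, holding for each of 12 libraries an estimated count and an FPKM value. The submitters' processing notes list Bowtie 0.12.2, HISAT2 2.0, StringTie 1.3.0 and the build mm8, with no roles; strand handling is not given in the sources used here. Of 21414 genes matched by symbol to RefSeq GRCm38.p6, 99.9% overlapped their RefSeq position, the 8 members included, so coordinates are printed as the table gives them. The deposited estimated counts were rounded to whole numbers before testing. Multiples of 4 are frequent in them (29.0% of values from 1 to 12 are 4), so counts are not fragments.

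Counts were tested with edgeR 4.0.16 (R 4.3.3) by its quasi-likelihood test, with libraries scaled by total counts as in the deposited FPKM, and all 12 libraries in 1 fit with 4 group means. Genes that reached 1 FPKM in 3 or more libraries entered (5527). A call needs a Benjamini-Hochberg adjusted p under 0.05 and a fold above 2. Shares were tested by exact permutation over all 369600 splits. The alternatives were TMM, DESeq2 1.42.0, limma 3.58.1 on log2(FPKM + 1) and log2(FPKM + 0.1), haemoglobin-based library sizes or haemoglobin left out, other filters, the replicate block, fits of 2 groups alone and leaving out each library. On data simulated for DNCB against Solvent over 5527 genes, edgeR recovered 28 of 100 genes changed 2.5-fold and 96 of 100 changed 8-fold, with 8 false calls. The simulated libraries differed in total alone, without the shift of most genes seen in these data, so they do not gauge errors that come from scaling. The 8 genes, the pathway lists and the marker lists were chosen with earlier results of these data known. All 8 are described by name, together with 9 paralogues and partners and the 3 genes most correlated with each; those of Map1lc3b are not reported here. Skp1 is listed as Skp1a.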

Additional observations from a re-analysis of the deposited data

Results flagged for a closer look

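The 2 MSC groups, which differ in route and in the volume given under the skin, differed in 4 of the 8 genes by the direct test of scivMSC against scMSC in edgeR (adjusted p under 0.05). Of all tested genes, 0.615% were higher and 31.6% lower by the same rule. Bnip3l was higher in scivMSC by 0.52 on the log2 scale, with 3 of 3 libraries above the 3 of scMSC (adjusted p = 0.0422). Gabarapl2 was higher by 0.60, also in 3 of 3 libraries (adjusted p = 0.0422). Ube2o was higher by 0.67, in 3 of 3 libraries (adjusted p = 0.0265). Ulk1 was lower, at -1.08, in 3 of 3 libraries (adjusted p = 0.0216). Under TMM the first 3 differences were 1.56, 1.64 and 1.72 and that of Ulk1 was -0.16, no longer past the threshold.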

How the results depend on the processing

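Most changes came with library scaling. The number of members called in scMSC against DNCB was 1 under TMM and DESeq2, but that gene was Trim58 (1.15 and 1.11) in place of Ulk1 (-0.86 and -0.90). It was 8 in scivMSC against DNCB, 7 against scMSC and 7 against Solvent under both, and 8 differed over the 4 groups. With haemoglobin left out these counts were 5, 1 (Xpo7, not Ulk1), 1 and 8. For scivMSC against DNCB, scMSC and Solvent, 52.7, 31 and 55.2% of all genes were then called in either direction. Of the 5523 genes, 341, 52 and 343 were called higher there. The shares in either direction were 40.4, 19.7 and 36.7% under DESeq2 and 39.4, 18 and 35.8% under TMM. In scMSC against DNCB they were 22.2% under DESeq2 and 21.1% under TMM. No filter gave 0 in scivMSC against scMSC, as did limma on log2(FPKM + 1) and the fit of the 2 groups alone, and 1 over the 4 groups, as did limma on log2(FPKM + 0.1). In scivMSC against scMSC the first 3 called 9.1, 5.97 and 13% of all genes in either direction. A mean FPKM of at least 5 leaves 4 members and drops Ulk1, so it gave 0 calls where Ulk1 had been the call, and 1 over the 4 groups. The haemoglobin share gave an exact permutation p = 0.0593 by summed FPKM.

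These uncalled differences changed sign. In scMSC against DNCB, TMM, DESeq2 and haemoglobin left out gave 0.49, 0.44 and 0.21 for Bnip3l, 0.41, 0.36 and 0.11 for Map1lc3b and 0.56, 0.50 and 0.27 for Gabarapl2, and the first 2 gave 0.10 and 0.048 for Ube2o. In scMSC against Solvent, the 3 gave 0.30, 0.30 and 0.0042 for Bnip3l, 0.37, 0.36 and 0.069 for Fbxo7 and 0.36, 0.36 and 0.063 for Ube2o, and the first 2 gave 0.19 and 0.19 for Gabarapl2 and 0.24 and 0.24 for Xpo7. Ulk1 in scivMSC against Solvent became 0.73 and 0.75. Haemoglobin-based library sizes gave -0.019 for Fbxo7 in scMSC against DNCB, -0.041 for Map1lc3b in scivMSC against DNCB and -0.028 for Map1lc3b in scMSC against Solvent. The cause was not tested.

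Leaving out 1 library at a time kept the single call in DNCB against Solvent, scMSC against DNCB and scivMSC against DNCB, with Ulk1 at 1.75 to 2.06, -1.69 to -1.38 and -2.92 to -2.46. Of all genes, 12.5 to 25.8, 12.3 to 32.7 and 51.8 to 71.9% were then called in either direction. The count in scivMSC against scMSC ran from 0 to 2: it was 2 without Solvent replicate 1 (Xpo7 at 1.11 joined) and 0 without scMSC replicate 1 or 3 or scivMSC replicate 2 or 3. Of all genes, 30.5% were called in either direction in the former run, and 9.47, 13.5, 14.7 and 13.4% in the latter. In scivMSC against Solvent the count ran from 0 to 1 (Xpo7 at 1.35, without Solvent replicate 1, beside 50% of all genes). Over the 4 groups it ran from 1 to 4: 4 without Solvent replicate 1 or DNCB replicate 3, and 1 without scMSC replicate 2 or 3 or scivMSC replicate 3. The p for the Map1lc3b share ran from 0.0238 to 0.401 and that for the haemoglobin share from 0.00786 to 0.102. The latter was over 0.05 without Solvent replicate 3, scivMSC replicate 2 or 3, or any DNCB or scMSC library. Uncalled differences that crossed 0 were, in DNCB against Solvent, Bnip3l (-0.21 to 0.064) and Xpo7 (-0.012 to 0.86). In scMSC against DNCB they were Bnip3l (-0.27 to 0.0059), Gabarapl2 (-0.19 to 0.11) and Fbxo7 (-0.076 to 0.21), and in scivMSC against DNCB Map1lc3b (-0.032 to 0.15). In scMSC against Solvent they were Map1lc3b (-0.060 to 0.11), Fbxo7 (-0.26 to 0.028), Trim58 (-0.18 to 0.26), Ube2o (-0.32 to 0.031) and Xpo7 (-0.72 to 0.25). For Trim58 they were -0.060 to 0.27 in scivMSC against scMSC and -0.046 to 0.39 in scivMSC against Solvent.

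The replicate numbers did not pair the libraries: same-numbered libraries of 2 groups had correlated deviations of -0.20 to 0.17, over 0.1 in 3 of 18 pairs. With the replicate block, 2 members were called in scivMSC against scMSC (Xpo7 at 1.27 joined Ulk1), beside 34.8% of all genes, and 4 differed over the 4 groups. Depth limits Trim58 most, at 132 to 303 counts per library.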
